A study of Mus musculus with 79 samples.

Results

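Chronic stress was compared with control housing in cortical interneurons that make vasoactive intestinal peptide (VIP). The comparison took every library labelled VIP in the series, 10 from mice exposed to unpredictable chronic mild stress (UCMS; mice U601 to U610) and 10 from control mice (mice U1 to U10), which is 20 of 79 libraries. All mice were male C57Bl/6J with no genetic modification named in the labels. UCMS mice received a changing sequence of mild social and environmental stressors for 5 weeks, among them restraint, wet bedding, a tilted cage, predator odour and disturbed light cycles, and lived singly. Control mice lived in groups with littermates, so stress and single housing cannot be told apart in any value below. Both arms also went through behavioural tests of anxiety-like and depressive-like behaviour in the last weeks. Each library held 130 cells of the medial prefrontal cortex, found with an RNA probe in 12 µm sections and excised by laser, and was made from total RNA with a kit for picogram input. The other 59 libraries came from pyramidal neurons (PYR) and from interneurons that make parvalbumin (PV) or somatostatin (SST) of the same mice.

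VIP neurons arise in the caudal ganglionic eminence (CGE) of the embryo and make up a small share of the inhibitory neurons of the cortex. They mostly inhibit other interneurons, above all SST cells, so that their firing releases pyramidal neurons from inhibition. They carry ionotropic serotonin and nicotinic acetylcholine receptors and are driven by long-range input during arousal, reward and threat.

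The libraries carried the defining gene of their label. Vip ranged from 2459 to 6607 normalized counts (median 4359) in UCMS libraries and from 3148 to 7701 (median 4796) in control libraries. In PYR, PV and SST libraries its mean was at most 35.7. Adarb2 and Htr3a, a pair of genes typical of CGE interneurons, were likewise high. Since Vip was probed to choose the cells, its excess over the other types is no finding. The libraries also held transcripts used as markers of pyramidal neurons. Slc17a7, which loads glutamate into the vesicles of excitatory cells, had 4998 ± 972 in UCMS and 4794 ± 1498 in control VIP libraries (mean ± SD, n = 10 each, as in all values that follow). In control PYR libraries it had 14218 ± 2014. Camk2a, of the same marker list, had 11898 ± 1503.5 in UCMS and 12009 ± 1967 in control VIP libraries, against 10372 ± 1507 in control PYR libraries. Whether such transcripts came from neighbouring cells was not tested. In bulk libraries of this kind, fewer cells of a type and less RNA per cell cannot be told apart.

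Reads counted on genes ran from 3642579 to 12693799 per VIP library, and 4 libraries (1 UCMS, 3 control) had fewer than 5 M reads. The UCMS library of mouse U601 had the fewest genes detected (9636, against 10015 in the next lowest library, a control). It and the control library of mouse U10 gave the most single-gene values far from their groups. Many results that rest on them, but not all, are therefore also given without 1 or both of them. UCMS libraries had 15340 ± 2865 genes detected and control libraries 13611 ± 2671, a difference that did not pass (permutation p = 0.179, two-sided; adjusted p = 0.823 over 17 library measures). No library measure passed after adjustment.

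No gene was called in VIP neurons. Limma's moderated test of 19451 genes gave 0 with adjusted p below 0.05 (0% of genes tested; smallest adjusted p = 0.932), and no gene had UCMS and control libraries that did not overlap. At an unadjusted p below 0.05 there were 1001 genes, 5.15% of those tested, of which 769 (3.95%) were higher and 232 (1.19%) lower in UCMS mice. Among the 6139 genes with a mean of at least 200 normalized counts, 268 (4.37%) were higher and 135 (2.2%) lower at that level. On the whole reads recovered from the table, edgeR's quasi-likelihood test called 0 genes as well, with 1572 at an unadjusted p below 0.05, and DESeq2 called 117, of which 93 had reads in at most 4 of the 20 libraries. For genes with a mean of at least 200 normalized counts, the 95% interval of a log2 fold change reached a median of 0.85 to either side, a factor of 1.80. Most differences smaller than that were not detectable with these libraries. Larger ones could also go uncalled, because the interval is not adjusted for the number of genes tested. Nop14, at a log2 fold change of 2.78, had an adjusted p of 0.932 in limma's test.

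The fold changes leaned towards UCMS among sparse genes. Of all genes tested, 60.2% had a log2 fold change above 0 and 39.8% below 0, with a median of 0.17, whereas the mean count was higher in UCMS libraries for 51.2% of them. At means of 50 to 200 counts the median log2 fold change was 0.31, at 200 to 1000 it was 0.08, and at 1000 or more it was 0.01 with 50.7% of 1350 genes above 0. The number of genes detected per library, given above, moved in the same direction; its part in this lean was not tested.

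**Figure D1:**
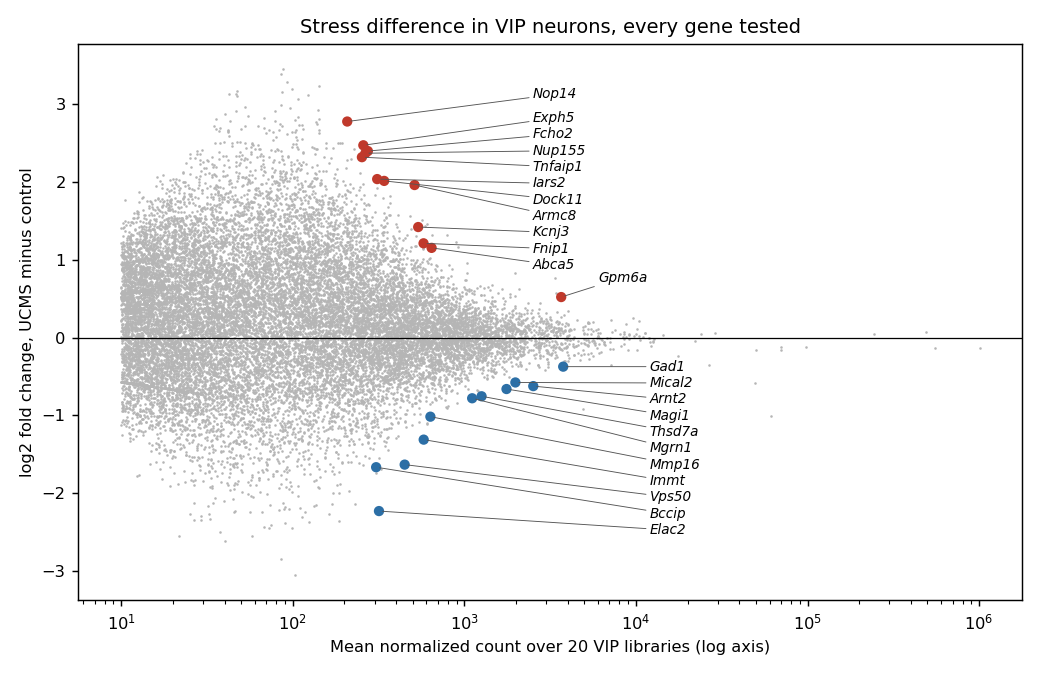
Log2 fold change, UCMS minus control, against the mean normalized count over the 20 VIP libraries (log axis), 1 grey point per gene tested. Coloured points, each with its symbol, come from the 12 genes with the smallest p in each direction among named protein-coding genes with a mean of at least 200; none was called by limma, and the cloud narrows towards abundant genes.

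Gpm6a, a membrane glycoprotein of growing neurites and filopodia, had the smallest p among the more abundant genes with a higher level under stress. It ranged from 3871 to 5161 normalized counts (median 4115) in UCMS libraries and from 1359 to 3987 (median 3499) in control libraries. The lowest UCMS libraries lay just below the highest control libraries, and 10 of 10 UCMS libraries exceeded the control median. The log2 fold change was 0.52 (SE 0.14, 95% interval 0.25 to 0.79, p = 0.000151, adjusted p = 0.932). It was 0.43 without UCMS mouse U601 and control mouse U10. Gpm6a (ENSMUSG00000031517) lies on chromosome 8 from 54954843 to 55060871 of GRCm38, on the plus strand.

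Kcnj3 encodes the GIRK1 subunit of the potassium channels that GABA-B and other Gi-coupled receptors open. Its level was 488 to 860 (median 675) in UCMS libraries and 2.13 to 843 (median 337) in control libraries. All UCMS libraries lay above the control median, the highest of them just above the top of a wide control range. The log2 fold change was 1.42 (SE 0.43, p = 0.00097), and 0.83 with control mouse U10 left out, whose library held 2.13 normalized counts.

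Abca5, a transporter of the ABC family found in lysosomes and endosomes, ranged from 458 to 1376 (median 837) in UCMS and from 48.2 to 853 (median 449) in control libraries. All UCMS libraries lay above the control median, and the ranges overlapped. Its log2 fold change was 1.15 (SE 0.36, p = 0.00153). Fnip1, a partner of the energy sensor AMPK and of folliculin, had 807 ± 387 counts in UCMS and 349 ± 130 in control libraries, differing by 1.21 on the log2 scale (SE 0.39), with 9 of 10 UCMS libraries above the control median.

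The other genes named on the higher side had wide control ranges, each beginning at 0. They were the nuclear pore component Nup155 (log2 fold change 2.37), the ribosome assembly factor Nop14 (2.78), the mitochondrial isoleucyl-tRNA synthetase Iars2 (2.04), the guanine nucleotide exchange factor Dock11 (2.01), Tnfaip1 (2.32), Exph5 (2.47), the endocytosis protein Fcho2 (2.40) and Armc8. Nup155 ranged from 213 to 484 in UCMS and from 0 to 473 in control libraries. Nop14 was detected in 10 of 10 UCMS but 6 of 10 control libraries, at 264 ± 128 against 151 ± 174. Such folds on the log2 scale therefore exceed the ratio of the means. For Armc8, which stood at 650 ± 242 against 374 ± 303, the log2 fold change was 1.79 without control mouse U4 (unadjusted p = 0.0717).

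Arnt2 had the smallest p on the lower side. It encodes the neuronal partner subunit of PAS-domain transcription factors, among them the activity-dependent factor NPAS4. Its level was 1224 to 2748 (median 1995) in UCMS libraries and 2209 to 4582 (median 2829) in control libraries. All 10 UCMS libraries lay below the control median, and the highest of them overlapped the lowest controls. The log2 fold change was -0.62 (SE 0.17, 95% interval -0.95 to -0.30, p = 0.000189, adjusted p = 0.932). DESeq2 on recovered reads did call it (-0.62, adjusted p = 0.00838), and over the 38 other fits its log2 fold change ran from -0.68 to -0.45 with adjusted p from 0.00838 to 1.00. Arnt2 (ENSMUSG00000015709) lies on chromosome 7 from 84246278 to 84410176 of GRCm38, on the minus strand.

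Magi1, a scaffold of cell junctions and synapses, ranged from 828 to 1994 (median 1292) in UCMS and from 1136 to 3054 (median 2071) in control libraries. The arms overlapped, with 10 of 10 UCMS libraries below the control median. The log2 fold change was -0.66 (SE 0.20, p = 0.0012). Mical2, an enzyme that oxidizes actin filaments, stood at 1600 ± 410 against 2362 ± 528, with a log2 fold change of -0.58 and 9 of 10 UCMS libraries below the control median.

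Less abundant genes on the lower side spread more. Elac2, which trims the ends of tRNAs, stood at 161 ± 113 against 475 ± 312 (log2 fold change -2.23), and Vps50, of the complex that returns endosomes' cargo, at 280 ± 176 against 617 ± 293 (-1.63). For both, 10 of 10 UCMS libraries lay under the median of the controls. Without UCMS mouse U601 and control mouse U10 their values were -1.62 and -0.92. Immt, a scaffold of mitochondrial cristae, was at 0 in UCMS mouse U601 and its log2 fold change went from -1.31 to -0.64 without that library (unadjusted p = 0.0758). Thsd7a (-0.75), the ubiquitin ligase Mgrn1 (-0.78), the membrane metalloprotease Mmp16 (-1.02) and Bccip (-1.67) also stood lower, as did Gad1, described below.

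**Figure D2:**
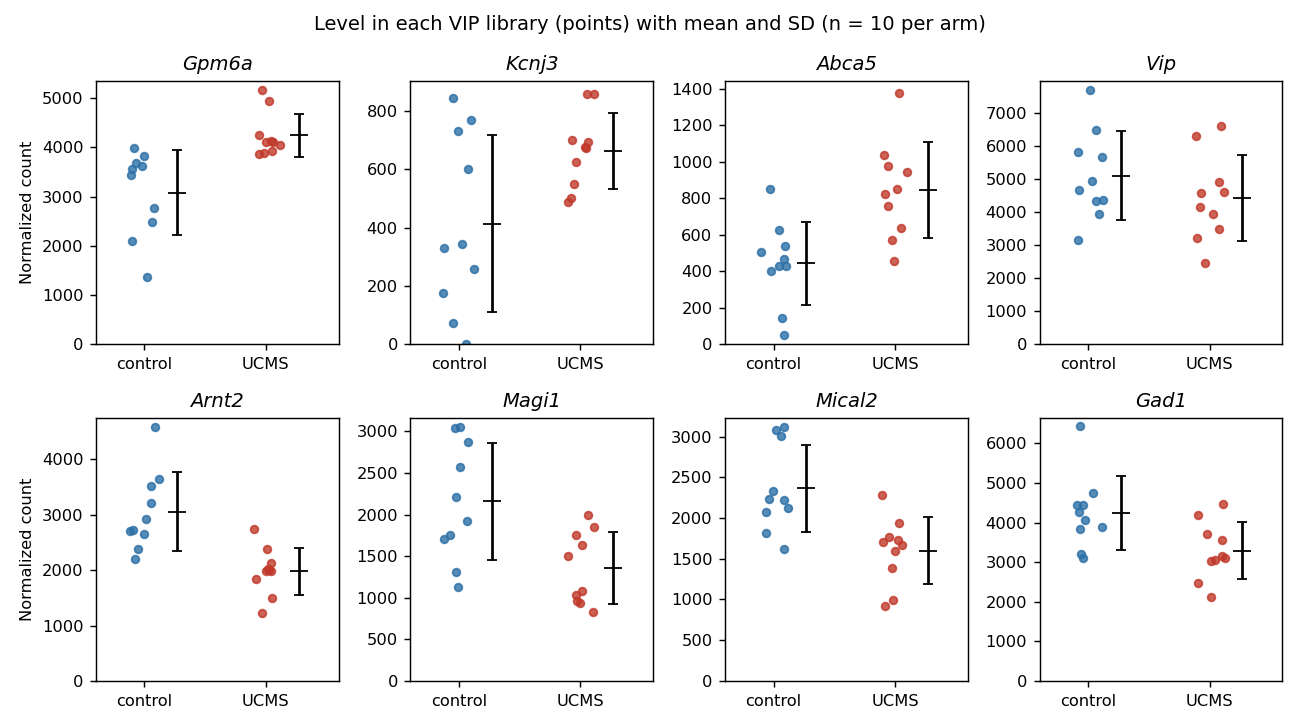
Normalized count of 8 genes in each VIP library (points; control blue, UCMS red) with the mean and SD of each arm beside them (n = 10 per arm). In every panel the arms overlap; Gpm6a, Kcnj3 and Abca5 sit higher and Arnt2, Magi1, Mical2 and Gad1 lower in most UCMS libraries, and Vip differs least.

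Among genes with a mean under 200, most of the largest folds came from libraries with few or no reads. Bcap31, an export factor of the endoplasmic reticulum, ranged from 18.6 to 432 in UCMS and from 0 to 78.9 in control libraries (log2 fold change 3.45). Foxo1, a transcription factor downstream of insulin signalling, stood at 172 ± 108 against 25.5 ± 36.9 (3.20), and Cep126, Wars2 and Mettl6 had log2 fold changes of 3.24, 3.39 and 3.12. The retinoic acid receptor Rarb stood at 13.1 ± 17.9 against 193 ± 242 (-3.05), Ggh at 28.1 ± 45.7 against 143 ± 132 (-2.84) and Zc3hav1, an antiviral RNA-binding protein, at 10.8 ± 34.1 against 70.2 ± 88.3 (-2.61).

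Among the genes named here, Slc8b1 and Tpmt had no read in any UCMS library. How many of all genes tested had no read in an arm is not given here, so how unusual such genes were was not tested. Slc8b1, the sodium-calcium exchanger of mitochondria, was detected in 7 of 10 control libraries at 43.6 ± 43.3, and was at least 149-fold lower in UCMS mice when 3 reads over the whole group are taken as the limit. Tpmt, an enzyme that methylates thiopurines, was detected in 4 of 10 control libraries at 112 ± 201, at least 383-fold lower in UCMS mice by the same limit, or 193-fold without control mouse U10, which held the highest count. Conversely Grin3b, an NMDA receptor subunit, had no read in control libraries and 26.3 ± 52.7 in UCMS libraries, at least 74.6-fold higher, from 4 of 10 mice, or 30.6-fold without UCMS mouse U602, which held the highest count. These limits compare group means and cover counting error only, not the spread between libraries. The median was 0 for Tpmt in control libraries and for Grin3b in UCMS libraries, so their limits rest on a minority of libraries. In limma's test the log2 fold changes were -2.56 for Slc8b1, -2.24 for Tpmt and 1.42 for Grin3b. Each had an adjusted p of 0.932, and the unadjusted p of Grin3b was 0.0589.

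The GABA system was described by 10 genes of synthesis, vesicle loading, uptake and chloride balance. None was called, 7 of 10 had a log2 fold change below 0 and the median was -0.10, against 0.17 for all genes tested and 0.01 for genes with a mean of at least 1000; the list's own median level was 1650. The mean count was higher in UCMS libraries for 2 of the 10, but the median count for 7. The list's median was -0.19 to -0.01 with each library left out and -0.0037 with the PV marker level as a covariate. At an unadjusted p below 0.05, 2 were lower and 0 higher. Gad1, the main GABA-synthesizing enzyme, ranged from 2108 to 4459 (median 3132) in UCMS and from 3105 to 6434 (median 4161) in control libraries. The arms overlapped over much of the UCMS range. Its log2 fold change was -0.37 (SE 0.13, 95% interval -0.64 to -0.11, p = 0.00563), and -0.24 without UCMS mouse U601 and control mouse U10. Gad1 (ENSMUSG00000070880) lies on chromosome 2 from 70553072 to 70602014 of GRCm38.

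Gad2, the other synthesizing enzyme, differed by -0.12, and Slc32a1, which loads GABA into vesicles, by -0.27 (95% interval -0.96 to 0.42); the value of Slc32a1 was 0.08 without the libraries under 5 M reads.

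Genes of VIP and CGE interneuron identity were close to 0 in their differences. Of 22 tested, 10 had a log2 fold change above 0 and 12 below, with a median of -0.03; 3 were higher and 0 lower at an unadjusted p below 0.05. Vip itself differed by -0.22 (SE 0.12, 95% interval -0.46 to 0.02, p = 0.0678; -0.13 without UCMS mouse U606), at 4423 ± 1295 against 5104 ± 1333. Adarb2 differed by -0.08, the cannabinoid receptor Cnr1 by -0.09 and the CGE transcription factor Prox1 by -0.11.

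The 3 higher identity genes were Cck, Igf1 and Nr2f2. Cck, a peptide of a separate class of interneuron and of some VIP cells, ranged from 896 to 4269 (median 1577) in UCMS and from 410 to 2270 (median 1292) in control libraries. The ranges overlapped widely, with 8 of 10 UCMS libraries above the control median. Its log2 fold change was 0.57 (SE 0.22, p = 0.01), and 0.34 without UCMS mouse U601 and control mouse U10. Igf1, an insulin-like growth factor that VIP cells secrete, stood at 941 ± 337 against 649 ± 327 (0.65). Nr2f2, a nuclear receptor of CGE lineages, stood at 551 ± 182 against 421 ± 306 (1.00), and its value was 0.40 without control mouse U4, whose library had 2.01 normalized counts. Calb2, which marks one class of VIP cells, differed by 0.47 (p = 0.0938; 0.18 without control mouse U3), and Crh, the stress peptide that some VIP cells make, by -0.06 (95% interval -1.27 to 1.15).

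Neuropeptides and their receptors divided evenly, 20 of 39 above 0, with a median of 0.07 and 4 higher and 0 lower at an unadjusted p below 0.05. Beside Cck these were Cpe, a peptide-processing enzyme (0.31), Npy1r, a receptor of neuropeptide Y (597 ± 141 against 420 ± 241; 0.92, and 0.48 without control mouse U4), and Oprl1, the nociceptin receptor (291 ± 215 against 167 ± 212; 1.53). Oprl1 was above the control median in 10 of 10 UCMS libraries.

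Receptors through which serotonin and acetylcholine reach VIP cells gave no call. Of 18 tested, 11 were above 0 and the median was 0.11. Htr3a, the ionotropic serotonin receptor, ranged from 460 to 1925 (median 681) in UCMS and from 254 to 1894 (median 1171) in control libraries. The ranges were nearly the same while 8 of 10 UCMS libraries lay below the control median. Its log2 fold change was -0.50 (SE 0.28, 95% interval -1.04 to 0.04, p = 0.0677). Chrm1, the M1 muscarinic receptor, stood at 1255 ± 370 against 880 ± 362 (0.60, p = 0.0239), and differed by 0.38 without control mouse U10. Of 10 dopamine, noradrenaline and histamine receptors 4 were above 0, with a median of -0.13.

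GABA-A receptor genes were mixed, 10 of 17 above 0 with a median of 0.07. Gabra4 differed by -0.84 (p = 0.0534; -0.50 without UCMS mouse U601), and Nlgn2, the neuroligin of inhibitory synapses, by 0.38 (2529 ± 578 against 1958 ± 466, p = 0.0302; 0.25 without control mouse U10). The GABA-B group had 5 of 10 above 0 and a median of -0.0021; Kcnj3, described above, was its 1 member at an unadjusted p below 0.05. Of 28 glutamate receptor genes 15 were above 0, with a median of 0.02 and none at an unadjusted p below 0.05.

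Immediate early genes, which neurons transcribe within minutes of strong activity, had the highest median of the 25 pathway lists. Of 25 tested, 18 had a log2 fold change above 0, where 60.2% of all genes did. The median was 0.64 against 0.17 for all genes tested and 0.31 for genes with means of 50 to 200, the range of the list's median level of 167, and 1 was higher and 0 lower at an unadjusted p below 0.05. Their counts were low and scattered. The mean count was higher in UCMS libraries for 14 of the 25 and the median count for 14; Egr3, Npas4, Dusp6 and Nptx2 had log2 fold changes above 0 with a lower mean. The list's median stayed between 0.27 and 0.77 with each library left out, was 0.35 with a pseudocount of 16 in place of 4, and was 0.22 with the summed level of PV neuron markers as a covariate.

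Egr4, a zinc finger transcription factor of the EGR family, ranged from 0 to 554.7 (median 44.8) in UCMS and from 0 to 105 (median 6.99) in control libraries. The UCMS library of mouse U601 carried the top value, and 9 of 10 UCMS libraries lay above the control median. The log2 fold change was 2.00 (SE 1.02, 95% interval 0.01 to 4.00, p = 0.0492, adjusted p = 0.932). Without UCMS mouse U601, limma's unadjusted p was 0.116. Arc, which drives the internalization of AMPA receptors, ranged from 102 to 996 (median 316) in UCMS and from 1.23 to 567 (median 177) in control libraries, a log2 fold change of 1.13 (95% interval -0.03 to 2.29), and of 0.59 without control mouse U3. Fos, the standard marker of recent activity, ranged from 0 to 594 (median 181) and from 0 to 875 (median 44.4), a log2 fold change of 1.59 (95% interval -0.18 to 3.35). The highest single Fos value belonged to a control library. Egr1 shows how the scale acts: it gave a log2 fold change of 0.95 although its mean was 551 under UCMS and 545 under control housing, and only 3 of 10 UCMS libraries exceeded the control median.

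Many promoters of activity-induced genes carry sites for the factor CREB, whose core letters are TGACG. That word, searched on both strands in the 250 bases before each start site of RefSeq (GRCm38.p6), occurred in 12 of the 18 immediate early genes with an entry and in 19.8% of 27025 genes with one. The full palindrome TGACGTCA, each of which also counts as a TGACG, occurred in 2 of 18 and in 1.77% of all, and a CArG box, the site of serum response factor, in 1 of 18 and 1.62%. Of 20 corticosteroid receptors and targets with an entry, 10 held TGACG and 2 the palindrome; Dusp1 is in both lists. These are matches of letters, not measured sites. The stretches upstream of Egr4 and Fos are shown because Egr4 had the highest log2 fold change of the list and Fos is its standard marker. Capitals mark TGACG or, on the opposite strand, CGTCA. Egr4 is read from the minus strand of chr6:85513590-85513839 and Fos from the plus strand of chr12:85473640-85473889, 5′ to 3′.
Egr4: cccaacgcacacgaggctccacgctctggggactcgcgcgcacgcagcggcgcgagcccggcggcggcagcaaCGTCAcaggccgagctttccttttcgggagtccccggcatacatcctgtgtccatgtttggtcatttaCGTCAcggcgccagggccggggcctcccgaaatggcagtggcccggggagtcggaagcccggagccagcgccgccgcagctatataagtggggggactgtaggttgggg
Fos: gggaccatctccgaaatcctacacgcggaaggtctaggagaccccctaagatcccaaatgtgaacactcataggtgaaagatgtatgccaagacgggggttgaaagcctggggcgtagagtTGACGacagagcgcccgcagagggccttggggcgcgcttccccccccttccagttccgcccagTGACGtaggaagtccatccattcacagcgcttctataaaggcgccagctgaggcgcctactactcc
Each stretch holds 2 such words.

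Corticosteroid receptors and their target genes, which circulating stress hormones regulate, had the next highest median. Of 21 tested, 15 were above 0 and 6 below, with a median of 0.51 (0.34 to 0.65 with each library left out), and none had an unadjusted p below 0.05. Among all genes with means of 50 to 200, the range of the list's median level of 111, 63.4% were above 0 and the median was 0.31. The list's median was 0.33 with a pseudocount of 16 and 0.31 without the libraries under 5 M reads. The mean count was higher in UCMS libraries for 12 of them. The glucocorticoid receptor Nr3c1 ranged from 440 to 1081 (median 618) in UCMS and from 314 to 1375 (median 739) in control libraries. The UCMS range lay inside the control range, and the log2 fold change was -0.15 (95% interval -0.78 to 0.48). The mineralocorticoid receptor Nr3c2 differed by -0.30 (95% interval -0.80 to 0.21).

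Among the targets, the clock gene Per1 stood at 913 ± 727 against 596 ± 294 (0.54, p = 0.105; 0.33 without UCMS mouse U601), and Fkbp5, the chaperone that dampens the glucocorticoid receptor, at 272 ± 217 against 199.6 ± 147 (0.77, 95% interval -0.57 to 2.11; 0.22 without control mouse U4). Dusp1, a phosphatase that belongs to this list and to the immediate early genes, stood at 103 ± 67.0 against 45.6 ± 50.5 (1.64, p = 0.105). Sgk1, a kinase induced by corticosteroids, had a log2 fold change of 0.69 although its mean was lower in UCMS libraries (209 against 267) and only 2 of 10 exceeded the control median.

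**Figure D3:**
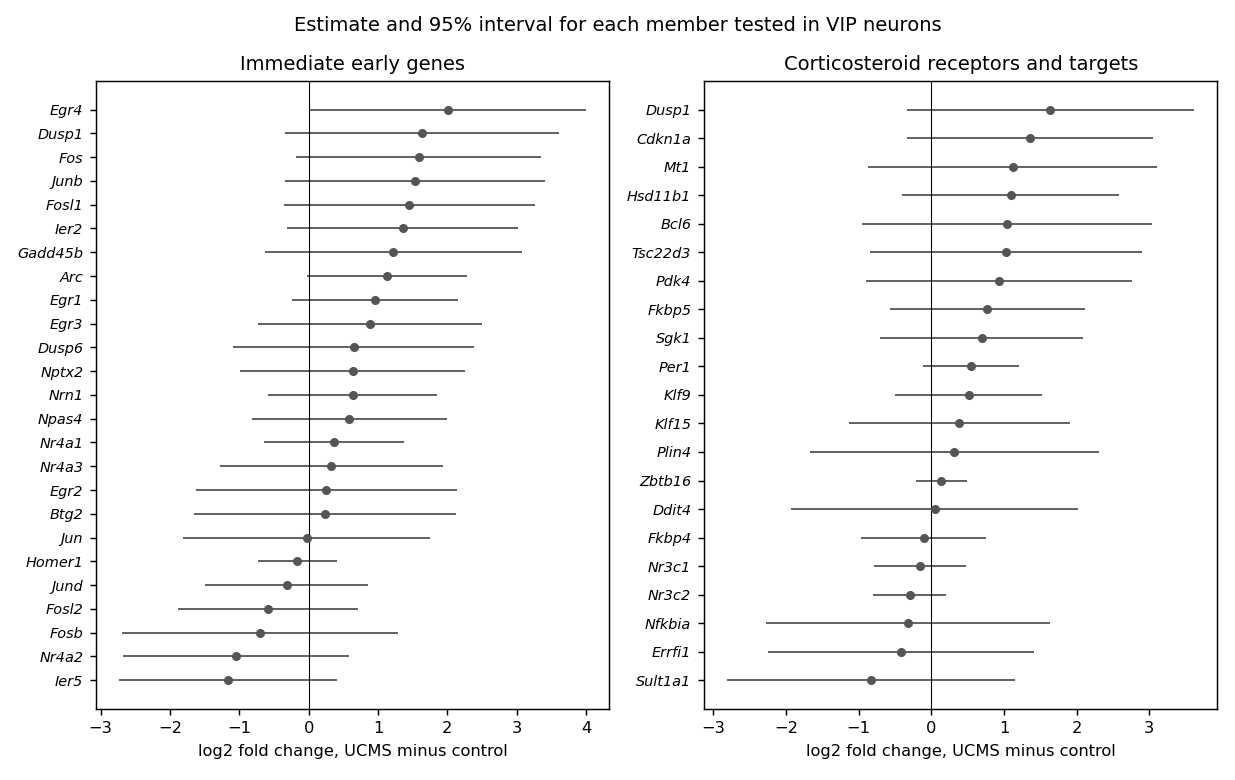
Log2 fold change, UCMS minus control, with its 95% interval from limma for each tested immediate early gene (left) and corticosteroid receptor or target (right). Of 25 and 21 points, 18 and 15 lie above 0, where 60.2% of all genes tested did. Only the interval of Egr4 leaves out 0.

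The remaining pathway lists had medians between -0.13 and 0.22, and none held a called gene. Cytosolic ribosomal proteins had 46 of 77 above 0 (median 0.12; 4 higher and 1 lower at an unadjusted p below 0.05), and nuclear genes of oxidative phosphorylation 39 of 75 (0.05; 2 higher and 1 lower), among them Sdhb of complex II at 443 ± 217 against 289 ± 324 (1.82, p = 0.0023). The 13 mitochondrially encoded proteins had 6 above 0 and a median of -0.0022; mt-Nd5, of complex I, differed by 0.22 (p = 0.00729). Heat shock genes had 11 of 20 above 0 (0.14), with the cochaperones Dnajb5 (504 ± 187 against 326 ± 347; 1.37, p = 0.00697) and Stip1 (1.16, p = 0.0108, 0.58 without control mouse U10) highest. The unfolded protein and integrated stress response had 18 of 28 above 0 (0.11), with its kinase Eif2ak3 at 1.35 (p = 0.0427; 0.82 without control mouse U10), ubiquitin and proteasome genes 25 of 38 (0.22), spliceosomal genes 16 of 24 (0.11) and interneuron transcription factors 8 of 20 (-0.10). Without the libraries under 5 M reads, the medians of the ubiquitin (-0.12), ribosomal (-0.06) and nuclear oxidative phosphorylation lists (-0.16) lay below 0.

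The lists of synaptic and excitability genes had medians close to 0, at median levels from 586 (potassium and HCN channels) to 5076 counts (axon initial segment and cytoskeleton). Single members ran from -1.20 in the axon initial segment and cytoskeleton list to 1.70 in the synaptic adhesion and scaffold list. Presynaptic release genes had a median of 0.02 (17 of 30 above 0), with the calcium sensor Syt1 at 9240 ± 1154 against 8334 ± 1802 (0.18, p = 0.0449; 0.09 without control mouse U3). Synaptic adhesion and scaffold genes had a median of 0.06, with the neurexin Nrxn2 lower at 5134 ± 788 against 6088 ± 1149 (-0.24, p = 0.0303). Potassium and HCN channels had a median of 0.03 and sodium and calcium channels of 0.01. The Kv3 subunit Kcnc4 stood at 332 ± 155 against 211 ± 195, with a log2 fold change of 1.5003 (p = 0.0231). Without control mouse U10 its log2 fold change was 0.98, and limma's unadjusted p was 0.0996. Cacna2d1, an auxiliary calcium channel subunit, differed by 0.48 (p = 0.0358). Without UCMS mouse U601, limma's unadjusted p for Cacna2d1 was 0.137. Calcium-dependent kinases and phosphatases had a median of 0.10, with the calcineurin subunit Ppp3r1 at 0.41 (p = 0.036; 0.22 without control mouse U10) and 4 of 10 UCMS libraries above the control median. Axon initial segment and cytoskeleton genes had a median of -0.03. Among them neurofascin (Nfasc), an adhesion molecule of the initial segment, stood at 1974 ± 391 against 2608 ± 525 (-0.40, p = 0.0214), below the control median in 10 of 10 UCMS libraries. In the neurotrophin, neuregulin and IGF list (7 of 16 above 0, median -0.04), Bdnf differed by -0.70 (95% interval -2.69 to 1.28; -0.23 without control mouse U6) and the neuregulin receptor Erbb4, abundant in VIP cells at 5018 ± 1300.2 against 5152 ± 1249, by -0.04 (95% interval -0.26 to 0.19).

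**Figure D4:**
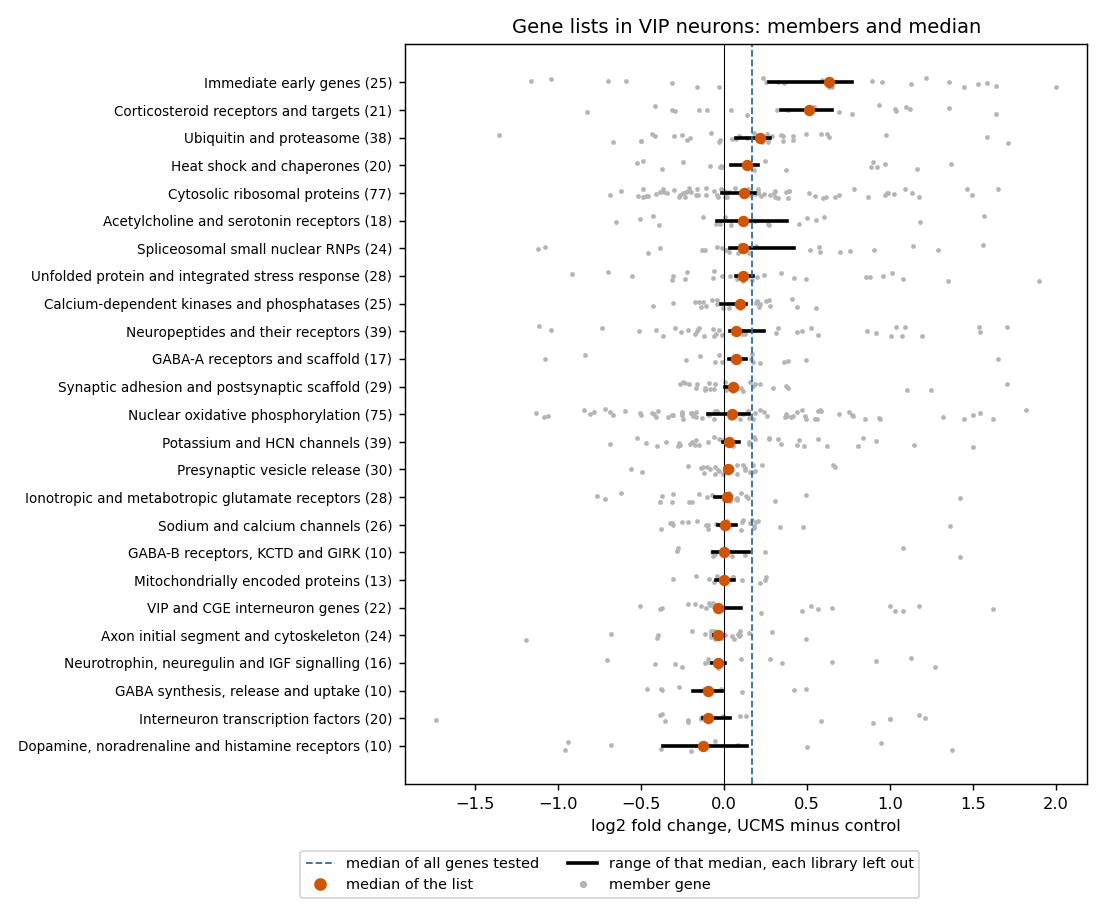
Log2 fold change, UCMS minus control, of each tested member (grey) of 25 pathway lists, with the list's median (orange), the range of that median when each VIP library is left out in turn (black bar) and the median of all genes tested (dashed, 0.17). The number tested stands after each name; only immediate early and corticosteroid genes have medians near or above 0.5.

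Markers of other cells were followed in the same libraries. The summed level of PV neuron markers was 3699 ± 821 in UCMS and 4672 ± 1190 in control libraries (permutation p = 0.0462, two-sided; adjusted p = 0.785). Most of this sum was Kcnc1, a channel gene that other neurons share, at 2714 ± 709 against 3311 ± 937. Lhx6, a transcription factor of PV and SST neurons, stood at 17.4 ± 20.4 against 68.4 ± 56.9 (-1.74, p = 0.0884), below the control median in 10 of 10 UCMS libraries, while Pvalb itself was near 0 in both arms (13.8 and 11.9). The sums for pyramidal, SST, neurogliaform, astrocyte, oligodendrocyte, microglia and blood markers differed by less than the spread between libraries. Endothelial and mural markers summed to 763 ± 275 against 592 ± 179 (p = 0.118), with 8 of 9 members above 0 and a median log2 fold change of 0.76, and oligodendrocyte precursor markers to 787 ± 582 against 712 ± 435, with 8 of 9 above 0 and a median of 0.39. Of all genes with means of 50 to 200, the range of both lists' median levels (54.8 and 71.3), 63.4% were above 0. The median of those genes was 0.31. The mean was higher in UCMS libraries for 6 of the 9 endothelial and mural members. For precursors only 3 of the 9 had a higher mean, and their median was -0.41 without the libraries under 5 M reads. Gja1, a connexin of astrocytes, stood at 181 ± 83.5 against 93.8 ± 114 (2.42, p = 0.00951), the highest log2 fold change of its list. Of the 12 astrocyte markers, whose median level of 121 lay in the same range, 8 were above 0 and 4 below. Their median was 0.50, and 0.05 without the libraries under 5 M reads. Kdr, an endothelial receptor and the highest of its list, stood at 106 ± 265 against 3.58 ± 7.26 (2.00, p = 0.0328), mostly from 1 UCMS library at 857. The value of Kdr was 1.43 without UCMS mouse U601. The part of these cells in the differences above was not tested.

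Whether the stress difference in VIP neurons departs from that in the other types was tested as the VIP difference minus the mean of the PYR, PV and SST differences, over all 79 libraries. Of 17427 genes, 0 were called by limma (0%; smallest adjusted p = 0.517) and 1063 (6.1%) had an unadjusted p below 0.05. Arnt2 stood near the top of this list: its log2 fold change was -0.62 in VIP neurons and 0.11, -0.11 and 0.00 in PYR, PV and SST neurons, a difference of -0.63 (SE 0.17, p = 0.000217, adjusted p = 0.575). Elac2 (difference -2.91), Vps50 (-2.15), Fam135b (1.52) and the metalloprotease Adamts14 (3.17) were the other genes with the smallest p. Vps50 stood lower in UCMS VIP neurons and higher in UCMS SST neurons, at 454 ± 196 against 231 ± 192 there. For Gad1 the difference was -0.08 (p = 0.811). No gene can therefore be called particular to VIP neurons in its stress difference.

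**Figure D5:**
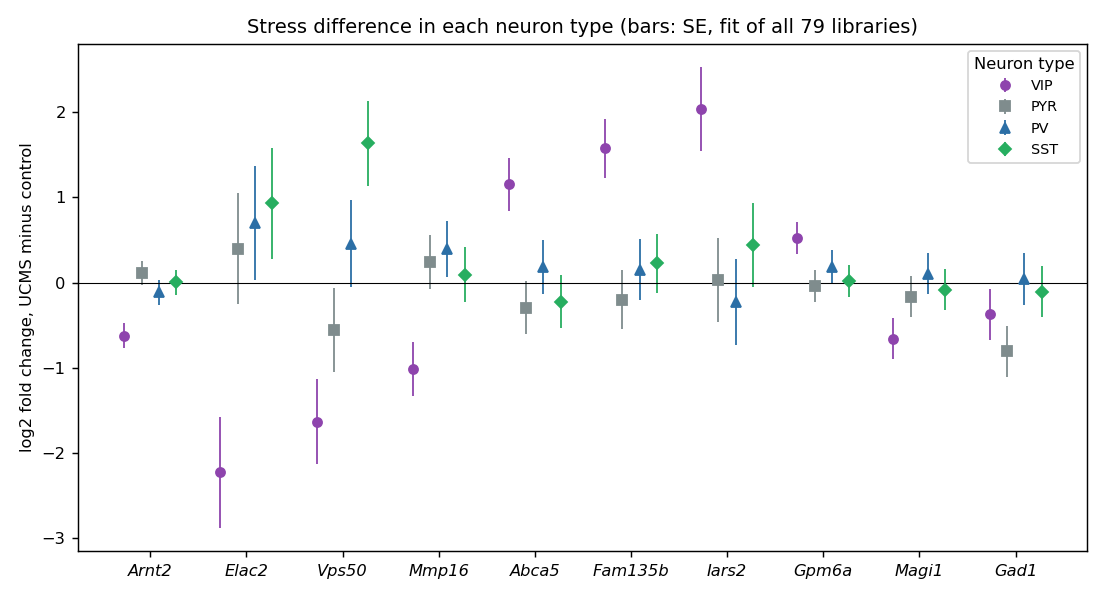
Log2 fold change, UCMS minus control, of 10 genes in VIP, PYR, PV and SST neurons, with SE bars from 1 fit of all 79 libraries (n = 10 per arm, 9 for UCMS PV). VIP neurons lie farthest from 0 for Arnt2, Elac2, Mmp16, Abca5, Fam135b, Iars2, Gpm6a and Magi1, while Vps50 is as far above 0 in SST neurons and Gad1 is lowest in PYR neurons, where it is scarce. The genes were picked for a small p in VIP neurons or in the difference from the other types. That choice favours large VIP differences, so the pattern is no evidence of an effect particular to VIP neurons.

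DESeq2, which the submitters' processing notes name among their tools, called 117 genes on the recovered reads, 83 of them higher in UCMS mice. Only 7 of the 117 were detected in at least 15 of the 20 libraries; those described here were chosen after their values were seen. Among them were Arnt2, the methylmalonyl-CoA mutase gene Mut (53.7 against 219 mean counts in UCMS and control), the mitochondrial RNA-binding factor Fastk (169 against 522), Zbed4 (120 against 335), the lysosomal sulfatase Arsb (165 against 468) and the gene model Gm8399. All of these but Gm8399 were lower in UCMS mice. The log2 fold changes of DESeq2 were -2.03 for Mut, -1.62 for Fastk, -1.47 for Zbed4 and -1.51 for Arsb. In limma these 4 had log2 fold changes of -2.15, -1.40, -1.37 and -1.55, none called. Gm8399 was higher by 3.51 in DESeq2, while its mean count was lower in UCMS libraries (57.4 against 88.7).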

How the data were processed

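RNA of 20 VIP libraries was compared within a deposited table of 38879 genes and 79 libraries. Its values are normalized counts, a signal made by the authors by dividing read counts by a size factor per library; per the submitters' processing notes, the tools were HISAT2, SAMtools 1.3 and DESeq2, and the build was GRCm38 (mm10). The sources used here give no read counter, annotation or strand setting. Without a known strand setting, reads of overlapping or antisense genes cannot be told apart. Every value of the VIP libraries was a whole multiple of its library's step within 0.001 reads, so reads were recovered for the count tests (edgeR 4.0.16, DESeq2 1.42.0) and for totals.

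The test was limma 3.58.1 (trend, robust; R 4.3.3) on log2(normalized count + 4), for genes with a mean of at least 10 over the 20 VIP libraries, with Benjamini-Hochberg adjustment over all 19451 of them and a threshold of 0.05. The added 4 shrinks folds of genes low in every library, whereas folds of genes with some libraries near 0 can exceed the ratio of the means or take the opposite sign. Of the genes tested, 92.9% were tested at the spread shared by genes of their level. The difference from the other types was fitted on all 79 libraries, with 17427 genes passing the same filter over them. Library measures were compared by a two-sided permutation test with 100000 resamples. Scripts were tested on simulated data. Annotation for gene types and coordinates was GENCODE M21, which held 38636 of the identifiers.

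Named genes were the 12 of smallest p in each direction among named protein-coding genes with a mean of at least 200, the 5 in each direction below that level, up to 3 per gene list, a fixed set of 13 (Vip, Calb2, Cck, Htr3a, Crh, Gad1, Gad2, Slc32a1, Nr3c1, Fkbp5, Fos, Bdnf, Erbb4) and the 5 with the smallest p for the difference from other types. Some genes that this rule picks are not reported here. Further genes illustrate their lists and were chosen after their values were seen. The libraries compared and the gene lists were chosen with earlier results of these data known. Labels give separate mice, and the arms of the VIP comparison share no mouse number; the numbers tie VIP libraries to other types of the same mouse, where the deviations of 59 pairs had a median correlation of 0.00861 and 0 pairs exceeded 0.1.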

Additional observations from a re-analysis of the deposited data

Results flagged for a closer look

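In 258 groups of 10 libraries, 39 held a highest or lowest library that stood farther from its nearest neighbour (genes on the log2 scale) than Dixon's 95% limit for 10 values; chance alone gives about 1 in 20 groups. Each value below is a normalized count in the library that stood apart.

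The UCMS library of mouse U601 and the control library of mouse U10 accounted for 8 each, more than any other library. Immt, Htr1a, Lrrtm4 and Atp5f1 were at 0 in mouse U601, Vps50 at 1.03, Grik3 at 20.6 and Slc32a1 at 227, each below the other UCMS libraries, while Cacna2d1 at 3657 was above them. The library of mouse U601 held the fewest genes detected, 9636. The 8 values of control mouse U10 were all low: Kcnj3, Stip1 and Fam135b at 2.13, U2af2 at 0, Rbfox1 at 162, Chrm1 at 189, Sort1 at 415 and Nlgn2 at 845.

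In the control library of mouse U4, Aldh5a1 and Fkbp5 were at 0, Nr2f2 at 2.01 and Npy1r at 16.1. In that of mouse U3, Arc stood at 1.23 and Cacna1e at 2748, and the 4 most abundant genes took 32.3% of reads, against 22.7% to 27.5% in the other controls. Control mouse U9 had Fnip1 at 53.3 and Crh at 0. Control mouse U7 had Cdkn1a at 51.2 and Kdr at 23.5, control mouse U1 had Htr3a at 254 and Erbb2 at 15.7, and control mouse U6 had Hspa9 at 338.

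Among UCMS libraries, mouse U602 had Zc3hav1 at 108 with all others at 0, Crh at 12.0 and a sum of oligodendrocyte precursor markers of 2298. Mouse U608 had Exph5 at 34.6 and Cul3 at 249.5, mouse U609 had Fnip1 at 198 and a sum of PV neuron markers of 5741, and mouse U604 had Npy1r at 278 and Psmd14 at 0.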

How the results depend on the processing

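DESeq2 called 117 genes on recovered reads and edgeR with its older deviances 896, of which 836 had reads in at most 4 libraries; all other settings run called 0, including edgeR with its current deviances (1572 genes at an unadjusted p below 0.05). Leaving out each library in turn gave 0 calls in all 20 fits, with the smallest adjusted p from 0.604 to 0.970 and 874 to 1158 genes at an unadjusted p below 0.05. With the PV marker level as a covariate that number was 554. In 1 fit of all 8 groups it was 1988, with a smallest adjusted p of 0.0791. The mouse as a random replicate block in that fit gave 0 calls and 1987 such genes, and the mouse as a fixed replicate block gave 0 calls for the difference from other types. The block changed no call. The median log2 fold change of all genes, 0.17, became 0.06 under quantile normalization, 0.22 with a pseudocount of 1 and 0.10 with 16.

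Of the named genes, 9 changed sign somewhere; the cause was not tested. Aldh5a1 was -0.033 in DESeq2, -0.043 in edgeR, -0.036 without its filter, -0.0098 with older deviances, -0.18 without the libraries under 5 M reads, and -0.21 to 0.65 with each library left out. Kctd12 was -0.43 in DESeq2, -0.098 in edgeR, -0.11 without its filter, -0.39 with older deviances and -0.22 with the PV covariate. Hrh1 was -0.062 in DESeq2, -0.088 in edgeR and -0.087 without its filter. Kcnc1 was 0.064 with the PV covariate. Crh was 0.28 with the PV covariate, 0.16 with genes detected as a covariate, 0.17 with library weights, 0.11 with a pseudocount of 1, 0.57 without the libraries under 5 M reads, and -0.69 to 0.35 with each library left out. Erbb4 was 0.014 with the PV covariate, 0.0048 in edgeR, 0.0068 without its filter, 0.077 with genes detected, 0.17 without the libraries under 5 M reads, and -0.11 to 0.018 with each library left out. Slc32a1 was 0.068 with library weights and 0.083 without the libraries under 5 M reads, where Nr3c1 was 0.14 and Bdnf 0.20. The settings without those libraries, with the PV covariate, with older deviances, without UCMS mouse U601 and control mouse U10, and without the highest library for genes with a group at 0 were chosen after seeing the data. With 10 mice per arm and depths from 3642579 reads, genes under a mean of 200 had the widest intervals.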

Other observations

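Gene models annotated as microRNA genes took 18.6% ± 2.65 of normalized counts in UCMS and 20.3% ± 2.88 in control VIP libraries (permutation p = 0.212, two-sided; adjusted p = 0.823). Mitochondrial ribosomal RNA took 8.70% ± 1.55 and 8.13% ± 1.68, and mitochondrially encoded protein genes 1.07% ± 0.144 and 1.02% ± 0.258. By gene type, 25 lincRNA genes were higher and 4 lower at an unadjusted p below 0.05 of 713 tested, with a median log2 fold change of 0.27, and 617 protein-coding genes were higher and 182 lower of 14697, with a median of 0.16.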
